A study of Homo sapiens with 20 samples.

Results

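The loci of 5 SOX genes, SOX2, SOX4, SOX9, SOX11 and SOX21, were examined for acetylation of histone H3 at lysine 27 (H3K27ac) in a rhabdoid tumour line with and without its missing chromatin remodelling subunit. Each locus was a fixed window of the hg19 genome: chr3:181300000-181600000 for SOX2, chr6:21400000-21800000 for SOX4, chr17:69500000-70400000 for SOX9, chr2:5700000-6000000 for SOX11 and chr13:95200000-95600000 for SOX21. Every deposited peak that overlapped a window by at least 1 bp was a member, which gave 25 of the 458811 peaks in the 4 lists. All 25 lay in the SOX21 window, and the windows of SOX2, SOX4, SOX9 and SOX11 held 0 peaks in each library.

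G401 is an established line from a rhabdoid tumour, a childhood cancer defined by loss of SMARCB1. Its genotype is given as SMARCB1 -/-, and every library came from this 1 line. Doxycycline switched on either a GFP transgene, the control, or a SMARCB1 transgene, so both groups carried the deletion and received the inducer. Each group had 2 H3K27ac libraries, numbered 1 and 2. The labels do not say whether these came from separate cultures, so the spread between them may be technical. The H3K4me3, H3K4me1, SMARCA4 and input samples were not analysed here. The dose and duration of doxycycline are not given in the sources used here.

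SOX proteins are transcription factors that bind DNA through an HMG box and direct the choice of cell lineage during development. SMARCB1 belongs to the SWI/SNF (BAF) remodelling complex, which opens chromatin at enhancers, and H3K27ac marks active enhancers and promoters. SOX2 keeps embryonic and neural progenitor cells undifferentiated, and SOX21 is a repressor that is expressed in neural tissue. SOX4 and SOX11 are close relatives that act in neuronal and mesenchymal progenitors, and SOX9 directs cartilage formation, sex determination and the development of several epithelia.

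The RefSeq table of the GRCh38.p14 build held a promoter for 3 of the 5 genes, SOX2, SOX4 and SOX21. The 250 bases before each gene start are printed below, 5′ to 3′ on the gene's strand, to show what these start sites look like. Capitals mark every CG dinucleotide, the only motif searched. CG reads the same on both strands.
SOX2: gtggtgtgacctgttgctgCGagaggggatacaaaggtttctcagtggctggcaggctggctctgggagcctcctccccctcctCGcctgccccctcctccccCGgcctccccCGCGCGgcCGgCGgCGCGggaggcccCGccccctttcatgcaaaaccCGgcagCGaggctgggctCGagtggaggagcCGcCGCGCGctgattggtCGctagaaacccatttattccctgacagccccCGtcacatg
SOX4: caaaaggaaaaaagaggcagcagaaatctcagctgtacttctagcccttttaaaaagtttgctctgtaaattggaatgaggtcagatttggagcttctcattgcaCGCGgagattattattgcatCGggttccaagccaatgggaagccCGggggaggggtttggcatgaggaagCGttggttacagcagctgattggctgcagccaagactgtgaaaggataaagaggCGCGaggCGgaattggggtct
SOX21: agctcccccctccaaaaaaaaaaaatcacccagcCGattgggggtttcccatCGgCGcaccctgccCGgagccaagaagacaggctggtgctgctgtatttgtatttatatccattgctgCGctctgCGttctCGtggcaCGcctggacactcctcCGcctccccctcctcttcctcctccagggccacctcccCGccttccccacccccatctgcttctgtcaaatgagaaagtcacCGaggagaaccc
On GRCh38.p14 these stretches are chr3:181711675-181711924 on the plus strand for SOX2, chr6:21593501-21593750 on the plus strand for SOX4 and chr13:94712546-94712795 on the minus strand for SOX21. The SOX2 promoter held 20 CG dinucleotides at a GC content of 68.8%, and 30.2% of the 35116 promoters in the table held more CG. SOX21 had 11 CG dinucleotides and a GC content of 58.8%, close to the medians of all promoters, which were 11 and 58.0%. The SOX4 promoter was poorer in both, with 8 CG dinucleotides and 48.8% GC. At least 1 CG was found in 93.9% of all promoters, so its presence is no distinguishing feature. These coordinates belong to a build other than that of the peaks and were not placed in the hg19 windows.

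The 4 libraries differed in how many peaks were called, and this bears on every count that follows. The GFP lists held 98251 and 79555 peaks in replicates 1 and 2, and the SMARCB1 lists held 145533 and 135472. Median fold enrichment, the authors' value for how far a peak's summit rises over the caller's background, was 4.61 and 3.99 in the GFP lists and 3.72 and 3.68 in the SMARCB1 lists. Depth was not given in the files, so a window without a peak is one in which none passed the caller's threshold, not one without acetylation.

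The windows of SOX2, SOX4, SOX9 and SOX11 held no called H3K27ac peak with either transgene. The peak numbers assigned by the caller ran on without a gap across each empty window in all 4 lists, so 0 numbers were missing there. In GFP replicate 1, for example, peak 72258 was the last before the SOX2 window and peak 72259 the first after it. Empty windows were common across the autosomes, where the tiling also takes in unsequenced ground. Of 9563 windows as long as those of SOX2 and SOX11 (300 kb), 4546 or 47.5% had no peak in any library. The same held for 43.0% of 7171 windows of the 400 kb used for SOX4 and for 28.8% of 3178 windows of the 900 kb used for SOX9. The 4 empty windows are therefore a description of these loci, and the lack of a peak was common among tiled windows. The tiling was not limited to windows that hold a gene, and the share of empty windows among those was not measured.

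The SOX21 window was occupied only at its lower edge. Its peaks formed 3 clusters within the first 55.6 kb, and the remaining 344 kb had none in any library. Over the whole window, peaks covered 6.66 kb and 5.67 kb in GFP replicates 1 and 2, and 5.47 kb and 4.81 kb in SMARCB1 replicates 1 and 2. Both SMARCB1 values lay below both GFP values, with a mean difference of -1.02 kb (exact two-sided permutation test, p = 0.333). That p is the smallest that 2 libraries against 2 can give, here and in the other comparisons. In a window 100 kb wider on each side the groups overlapped, with a difference of -0.355 kb, and without GFP replicate 1 it was -0.531 kb. Covered length was lower in both SMARCB1 libraries in 690 of the 4087 windows of this length that held a peak, or 16.9%. Peak number did not separate the groups, at 6 and 7 with GFP and 7 and 5 with SMARCB1.

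Within the SOX21 window the clusters lay at the same summits with either transgene. The first, at chr13:95200478-95202724, covered 1.76 kb and 1.99 kb with GFP and 1.78 kb and 1.89 kb with SMARCB1. These values overlapped, and the highest summits of the 4 libraries fell within 34 bp. The second cluster, at chr13:95246382-95249199, covered 2.73 kb and 2.27 kb with GFP and 2.21 kb and 1.89 kb with SMARCB1. It was narrower in both SMARCB1 libraries, with a mean difference of -0.447 kb, although its summits lay within 30 bp. The third cluster, at chr13:95252681-95255557, covered 2.16 kb and 1.42 kb with GFP and 1.48 kb and 1.03 kb with SMARCB1, and its summits lay within 17 bp. Its groups overlapped, since SMARCB1 replicate 1 exceeded GFP replicate 2.

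When peaks of the 4 libraries were merged, the SOX21 clusters made 6 regions. Of these, 4 had a peak in every library, 0 were gained (called with SMARCB1 in replicates 1 and 2 and with GFP in neither) and 0 were lost, the opposite case. Over all 167933 merged regions, 17.5% were gained and 3.94% were lost. The other two regions belonged to the third cluster. The region at chr13:95252681-95252918 was called in GFP replicate 1 alone, with a fold of 3.54. The region at chr13:95253283-95253832 was called in GFP replicates 1 and 2 and in SMARCB1 replicate 1, with folds of 6.02, 2.96 and 3.55.

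The main peak of each SOX21 cluster was among the stronger ones of its list, and the lesser peaks ranged down to one in GFP replicate 2 that 88.6% of its list exceeded. The common region with the highest lower fold over the 4 lists, chr13:95246382-95248521 in the second cluster, had folds of 14.6 and 10.2 in the GFP lists and 10.4 and 9.82 in the SMARCB1 lists. The strongest peak of the window belonged to the third cluster in both GFP lists, with folds of 17.5 and 12.7, which 7.0% and 5.1% of the peaks of those lists exceeded. In SMARCB1 replicate 1 the highest fold was that of the first cluster, 10.9, with 10.4 in both the second and the third. In SMARCB1 replicate 2 it was that of the second cluster, 9.82. These folds of 10.9 and 9.82 were exceeded by 5.0% and 5.13% of their lists. Ordered by −log10 p, the third cluster was the strongest in SMARCB1 replicate 1, at 44.3 against 41.2 in the first and 38.9 in the second. Folds are relative to each list's own background, so they order peaks within a list and were not compared between lists.

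**Figure D1:**
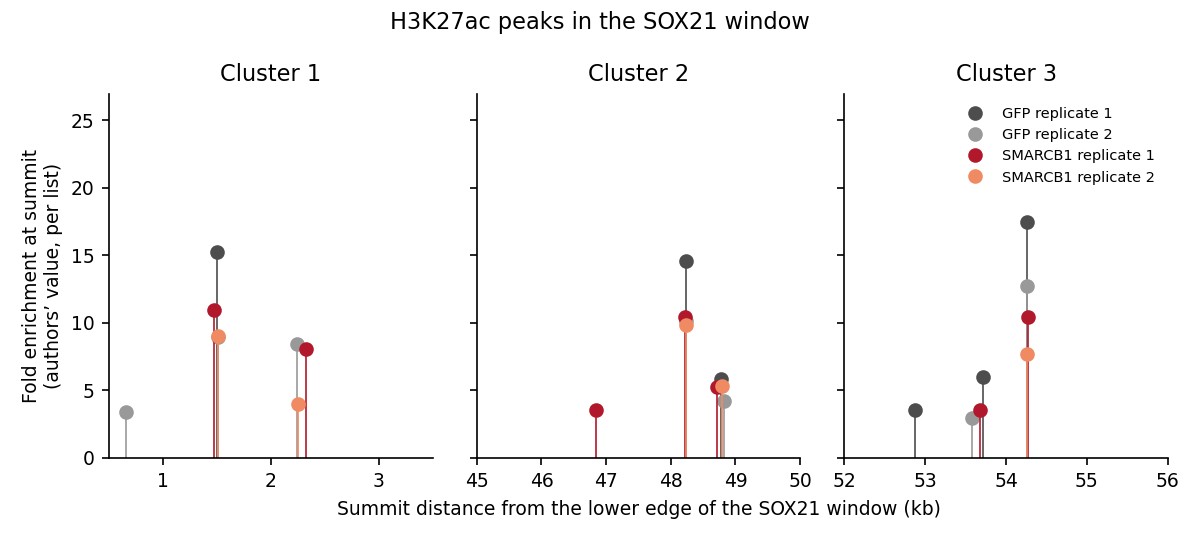
All 25 H3K27ac peaks of the SOX21 window, with the summit's distance from the lower edge of the window in kb on the horizontal axis, split at the gaps between clusters, and the authors' fold enrichment within each list on the vertical axis. Each point is a peak of 1 library, and the main summits of the 4 libraries fall within 34 bp, 30 bp and 17 bp of each other in the 3 clusters.

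Which gene the 3 clusters at SOX21 lie at was not determined, because no hg19 annotation was used here. In the RefSeq gene order of GRCh38.p14, the protein-coding neighbours below SOX21 are GPR180 and then TGDS, and those above are ABCC4, a drug and metabolite transporter, and then CLDN10, a tight junction protein. The window was drawn by coordinates, so its peaks may not be credited to SOX21 itself. All 25 peaks lay outside every region of the authors' 4 stitched tables, in which peaks away from transcription start sites were joined across short gaps. For comparison, 15.5% and 17.1% of the peaks in the GFP lists and 10.7% and 10.8% in the SMARCB1 lists lay outside them. None of the 5 windows held a stitched region, and so none held one of the authors' super-enhancer marks.

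The empty ground at SOX2, SOX4, SOX9 and SOX11 reached far past the windows. Measured to the nearest peak on each side, the stretch at SOX2 was 1.73 Mb long in both GFP libraries and 1.80 Mb in both SMARCB1 libraries. It was longer in both SMARCB1 libraries, by 0.0769 Mb, because the nearest peak above the window stood at 834 kb with GFP and at 911 kb with SMARCB1. The nearest peak below stood at 592 kb or 593 kb in every library. Among 1396 peak-free stretches of at least 300 kb, 20.6% were longer in both SMARCB1 libraries.

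With all deposited peaks, SOX4 showed the largest change of the 5 stretches. Its empty stretch was 3.87 Mb long in both GFP libraries and 1.72 Mb and 1.64 Mb in SMARCB1 replicates 1 and 2, a mean difference of -2.19 Mb (exact permutation p = 0.333). New boundaries appeared on both sides. The nearest peak below moved from 865 kb in both GFP libraries to 289 kb and 211 kb with SMARCB1, and the nearest above moved from 2603 kb to 1028 kb. These bounding peaks had folds of 4.39 and 3.48 below and 2.76 and 3.08 above in SMARCB1 replicates 1 and 2, against list medians of 3.72 and 3.68. Where only peaks with a −log10 q of at least 5 were kept, or each list was reduced to its 79555 strongest, the difference was -0.576 Mb. With the 20000 strongest peaks of each list it was -0.178 Mb, smaller than the -0.23 Mb at SOX21 under that setting.

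At SOX9 the empty stretch measured 2.46 Mb and 2.47 Mb with GFP and 2.06 Mb in both SMARCB1 libraries. It was shorter with SMARCB1, with a mean difference of -0.405 Mb, and the whole change lay above the window. There the nearest peak stood at 680 kb and 688 kb with GFP and at 279 kb in both SMARCB1 libraries, while the nearest below stood at 881 kb in all 4. The new boundary consisted of 2 gained regions, chr17:70679393-70680112 with folds of 5.06 and 4.30 and chr17:70680536-70681085 with folds of 5.57 and 4.50. With only the 20000 strongest peaks of each list the sign turned, to 0.051 Mb longer.

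SOX11 lay in the emptiest ground of the 5. Its stretch was 4.97 Mb and 5.05 Mb long with GFP and 5.03 Mb and 4.96 Mb with SMARCB1, so the groups overlapped. The stretch free of peaks in all 4 libraries at once was 4.93 Mb, the 36th longest of the 1396, with 2.51% longer. The corresponding stretches were 1.73 Mb at SOX2, 1.64 Mb at SOX4 and 2.06 Mb at SOX9, and 19.3%, 20.7% and 14.7% of all stretches were longer than these. Around SOX11 no peak was called within 1947 kb below or 2680 kb above the window in any library.

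Above its last peak, the SOX21 window opened into an empty stretch of 0.589 Mb and 0.695 Mb with GFP and of 0.422 Mb and 0.420 Mb with SMARCB1. It was shorter in both SMARCB1 libraries, with a mean difference of -0.220 Mb. The nearest peak above the window stood at 244 kb and 350 kb with GFP and at 77.4 kb and 75.6 kb with SMARCB1. Shorter stretches with SMARCB1 were therefore found at SOX4, SOX9 and SOX21, at 3 of the 5 loci, where 49.2% of all 1396 stretches were shorter in both SMARCB1 libraries. The SMARCB1 lists were also the longer ones. With the 79555 strongest peaks of each list, the difference was -0.576 Mb at SOX4, -0.18 Mb at SOX9, where the groups then overlapped, and -0.265 Mb at SOX21.

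**Figure D2:**
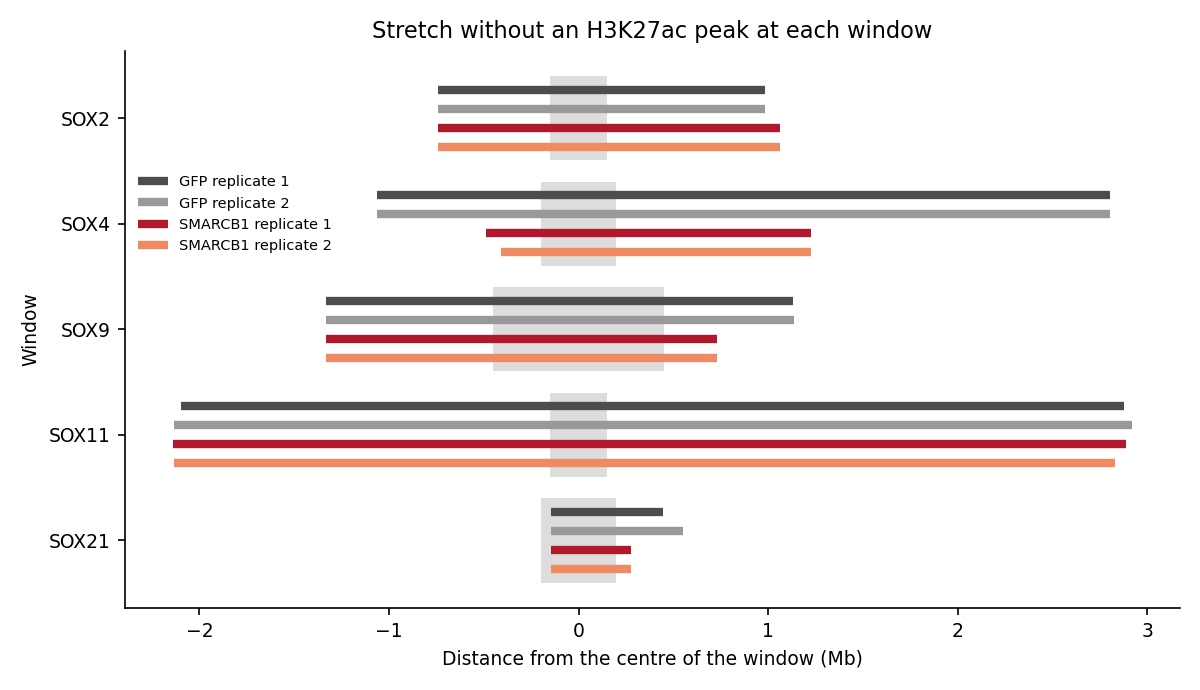
The stretch without an H3K27ac peak at each window, drawn as a bar from the nearest peak below to the nearest peak above, with distance from the centre of the window in Mb on the horizontal axis and the 4 libraries of each window one under the other. Grey boxes are the windows. The SOX4 bars shorten from 3.87 Mb in both GFP libraries to 1.72 Mb and 1.64 Mb in the SMARCB1 libraries, and the SOX11 bars overlap.

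The ground beside the windows was then measured as the length under peaks in the 1 Mb below and the 1 Mb above each. Of these 10 flanks, 3 were higher in both SMARCB1 libraries, 2 were lower in both and 5 overlapped, among which 4 had no peak in any library. Across the 2084 windows of 1 Mb that held a peak, 61.2% were higher and 14.4% were lower in both SMARCB1 libraries, with a median difference of 5.2 kb. With 3 risers among the 6 flanks that held a peak, the share was not above that of the genome.

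**Figure D3:**
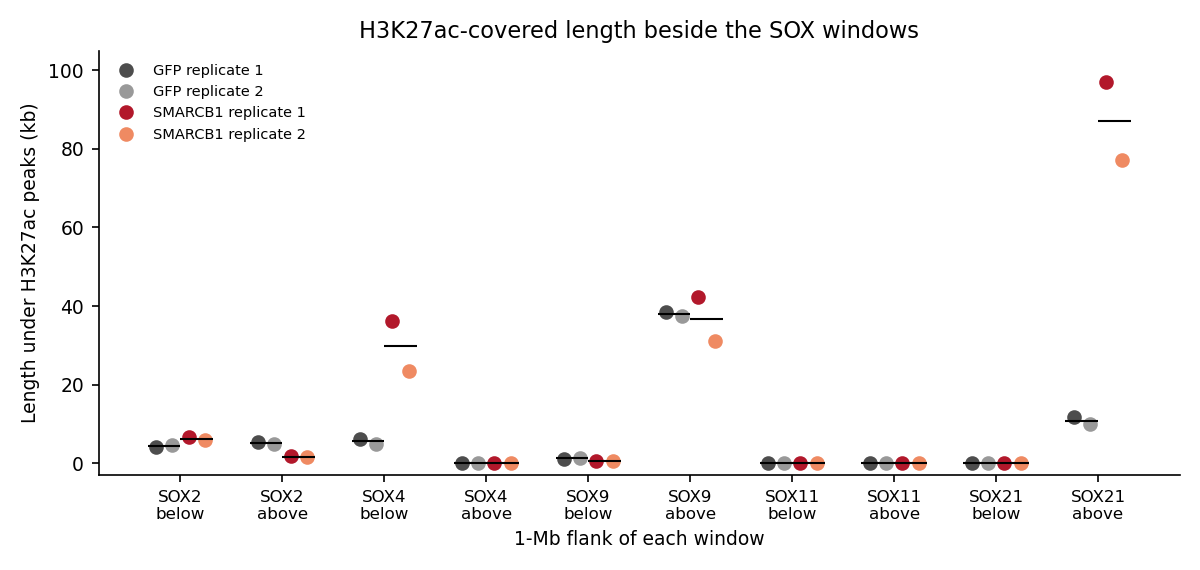
Length under H3K27ac peaks in kb in the 1-Mb flanks below and above each window, with 1 point per library and a line at the mean of each group of 2. The upper flank of SOX21 reaches 97.0 kb and 77.1 kb with SMARCB1 against 11.6 kb and 9.91 kb with GFP, and 4 flanks are at 0 in all libraries.

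The upper flank of SOX21 had the largest difference of the 10 flanks of 1 Mb. Peaks covered 11.6 kb and 9.91 kb in GFP replicates 1 and 2 and 97.0 kb and 77.1 kb in SMARCB1 replicates 1 and 2. The means were 10.8 ± 1.23 kb and 87.1 ± 14.0 kb (SD, n = 2), a ratio of 8.08, and the groups did not overlap (exact two-sided permutation test, p = 0.333). Of the 1-Mb windows with a peak, 2.59% had a larger difference than its 76.3 kb. That share does not allow for this flank being the largest of 10. Peak number moved the same way, from 20 and 11 with GFP to 143 and 125 with SMARCB1.

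The added peaks above SOX21 formed a dense block rather than an even spread. Between 100 kb and 400 kb from the edge, at chr13:95700001-96000000, the SMARCB1 libraries had 128 and 109 peaks, which covered 28.7% and 23.0% of the ground. The GFP libraries had 7 and 4 peaks there, covering 1.41% and 0.968%. This block held 88.9% and 89.5% of the covered length of the flank in the SMARCB1 libraries. Its limits were chosen after the values were seen, so these shares are a description. In RefSeq's order ABCC4 is the next protein-coding gene above SOX21, and whether the peaks of the block lie in it was not determined.

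Of the 168 merged regions in the upper flank of SOX21, 58 or 34.5% were gained and 2 or 1.19% were lost. Over all merged regions the shares were 17.5% and 3.94%. The strongest gained region was chr13:95721842-95724968, 122 kb above the window, with folds of 9.26 and 9.82 in SMARCB1 replicates 1 and 2. The next were chr13:95917413-95923539, with folds of 9.93 and 8.80, and chr13:95726415-95732533, with folds of 8.76 and 9.42. Most peaks of the flank were near the middle of the SMARCB1 lists, with median folds of 3.55 and 3.48 where the lists had 3.72 and 3.68. With lists of equal length the rise was 54.8 kb, with peaks of −log10 q 5 or more it was 49.5 kb, and with the 20000 strongest peaks it was 23.1 kb.

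The lower flank of SOX4 had the next largest rise among the 1-Mb flanks. Peaks covered 6.12 kb and 4.91 kb with GFP and 36.1 kb and 23.5 kb with SMARCB1, and the groups did not overlap. The means were 5.52 ± 0.858 kb and 29.8 ± 8.87 kb (SD, n = 2), a ratio of 5.40. The difference of 24.3 kb was exceeded in 21.1% of the 1-Mb windows with a peak, so a rise of this size was common. Peak number went from 8 and 4 to 73 and 56.

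In the GFP libraries the peaks below SOX4 all stood more than 800 kb from the window. With SMARCB1, peaks also stood between 200 kb and 800 kb, at chr6:20600000-21199999, where both GFP libraries had 0. The SMARCB1 libraries had 43 and 38 peaks there, covering 23.5 kb and 15.7 kb, or 3.92% and 2.62% of the ground. The limits of this stretch were chosen after the values were seen, so these values are a description. Of 91 merged regions in the flank, 26 or 28.6% were gained and 1 was lost, chr6:20401152-20401444. Over all merged regions 17.5% were gained and 3.94% were lost. The strongest gained region was chr6:20809561-20811529, 588 kb below the window, with folds of 10.9 and 9.21. In RefSeq's order CDKAL1, a tRNA-modifying enzyme, is the next protein-coding gene below SOX4, and whether these peaks lie in it was not determined. The difference shrank to 14.2 kb with lists of equal length, 13.1 kb with peaks of −log10 q 5 or more and 1.31 kb with the 20000 strongest peaks. It was 11.9 kb with a flank of 2 Mb.

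**Figure D4:**
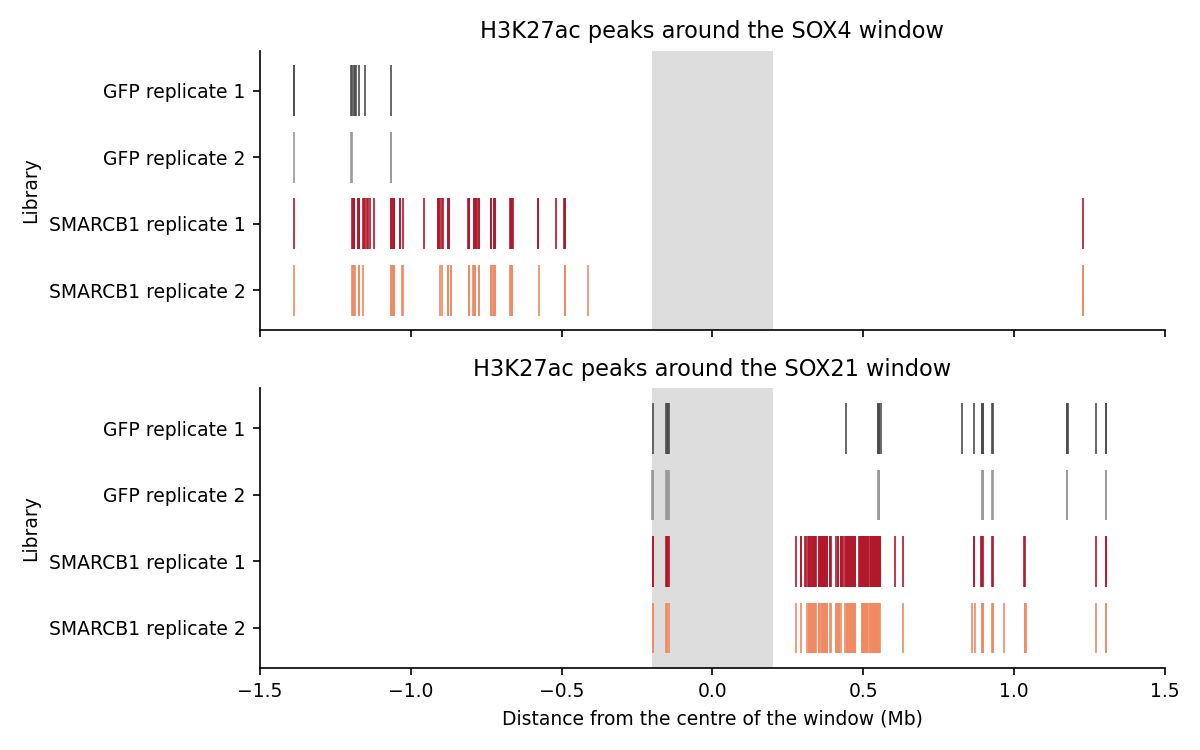
Positions of all H3K27ac peaks within 1.5 Mb of the centres of the SOX4 and SOX21 windows, 1 tick per peak and 1 row of ticks per library, with distance in Mb on the horizontal axis. Grey boxes are the windows. Both SMARCB1 libraries have peaks on the side facing SOX4 where both GFP libraries have 0, and a dense block above SOX21.

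**Figure D5:**
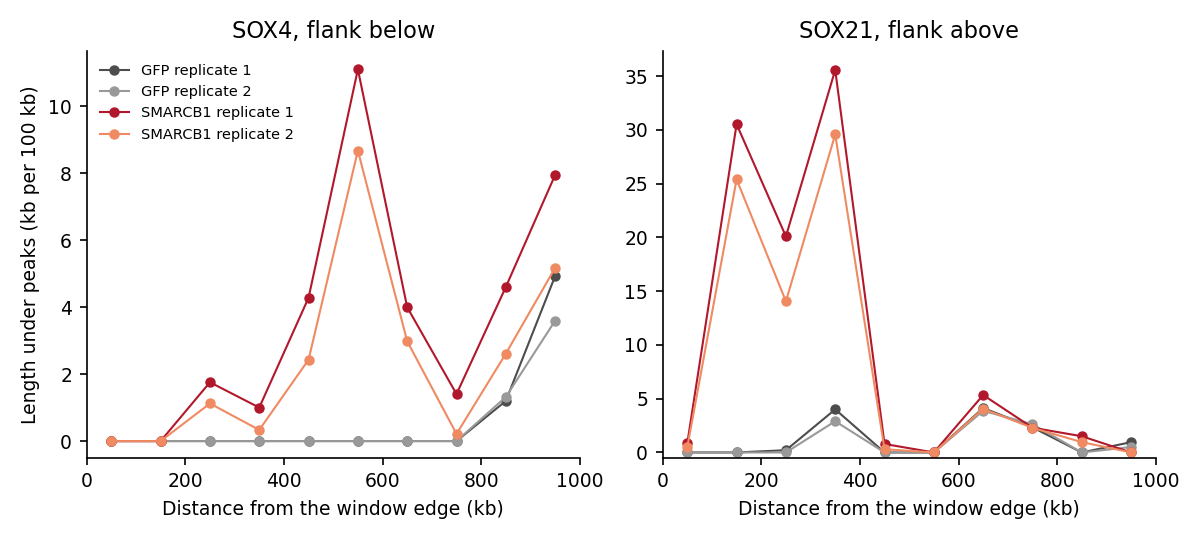
Length under peaks in each 100-kb step away from the window, for the lower flank of SOX4 and the upper flank of SOX21, with 1 line per library. The SMARCB1 lines peak at 11.1 kb and 8.67 kb between 500 kb and 600 kb below SOX4, and at 35.6 kb and 29.6 kb between 300 kb and 400 kb above SOX21.

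The other 1-Mb flanks changed less. Below SOX2, covered length was 4.19 kb and 4.56 kb with GFP and 6.71 kb and 5.83 kb with SMARCB1, higher by a mean of 1.90 kb, and 62.1% of 1-Mb windows had a larger difference. Of its 17 merged regions 2 were gained, or 11.8% against 17.5% of all merged regions. The stronger was chr3:180328095-180328730, with folds of 3.89 and 3.48. Above SOX2 it was 5.28 kb and 4.79 kb with GFP and 1.73 kb and 1.48 kb with SMARCB1, a mean difference of -3.43 kb. Most of that fall lay between 800 kb and 900 kb from the window, where the GFP libraries had 5 and 6 peaks and the SMARCB1 libraries had 0. Of the 7 merged regions of this flank, 4 were lost, which is 57.1% against 3.94% of all merged regions. They were led by chr3:182443626-182444765, with folds of 7.16 and 6.12 in GFP replicates 1 and 2. The lost regions with the highest folds stood 835 kb, 843 kb and 844 kb above the window. The share of 57.1% thus counts near neighbours and not regions spread over the flank. The lower flank of SOX2 turned its sign when weaker peaks were left out, and the upper flank turned when it was lengthened to 2 Mb.

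Beside SOX9, the lower flank held 1.17 kb and 1.43 kb with GFP and 0.441 kb and 0.508 kb with SMARCB1, with a mean difference of -0.829 kb. Of its 2 merged regions, 1 had a peak in all 4 libraries and 1 was lost, where 3.94% of all merged regions were lost. The lost region was chr17:68617176-68617925, with folds of 4.58 and 3.27 in GFP replicates 1 and 2. Lengthened to 2 Mb, this lower flank held 231.9 kb and 237.8 kb with GFP and 136.3 kb and 112.6 kb with SMARCB1. The groups did not overlap, and the difference of -110.4 kb was larger in size than the 76.4 kb above SOX21 at that length. How many windows of 2 Mb differ as much was not measured, so whether such a fall is common is not known. The peaks in question lay more than 1 Mb below the window of SOX9. The upper flank of SOX9 was the fullest of the 10 in the GFP libraries, with 38.4 kb and 37.5 kb, against 42.3 kb and 31.02 kb with SMARCB1. These values overlapped, and gained and lost regions were equal in number, 7 each of 73, or 9.59%. Over all merged regions 17.5% were gained and 3.94% were lost, so by share this flank had fewer gains and more losses. Without SMARCB1 replicate 2 the mean difference of -1.31 kb became 4.31 kb. Most of that length lay between 800 kb and 900 kb above the window, with 25.4 kb and 25.6 kb in the GFP libraries and 26.1 kb and 18.2 kb in the SMARCB1 libraries. The upper flank of SOX4, both flanks of SOX11 and the lower flank of SOX21 had no peak in any library.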

How the data were processed

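H3K27ac chromatin immunoprecipitation of G401 cells was taken from 4 deposited peak lists, 1 per library, and 4 stitched-region tables. Groups followed the induced gene and antibody target in the labels, which gave 10 groups among 20 samples. Peaks came from MACS2 with a filter, run library by library on hg19, per the peak names and file tags. The submitters' processing notes also name BWA 0.7.12-r1039, SAMtools and bedtools, with no role. The caller's version, control and filter rule are not given in the sources used here. Each peak's fold enrichment is a deposited ratio of the authors, and its −log10 p and −log10 q values are also deposited. They served to order and filter a list's own peaks, and the naming rule took the lowest fold of a region over the lists that held it. The lowest −log10 q was 1.32 to 1.36 and the narrowest peak 200 bp. The lists lacked 73, 53, 74 and 75 of their own peak numbers, none of them in the windows. Other deposited columns, the summit offset and the super-enhancer mark, were used as positions and flags. ROSE joined peaks away from transcription start sites within 12.5 kb, per the file headers. The names of these tables match no sample title, so they were used together, and 8 columns of per-sample signal were not used.

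Overlap was counted from 1 bp. Overlapping peaks of the 4 libraries were merged into regions, and SOX21 peaks within 2 kb of each other made a cluster. Covered length, peak number and stretch length were 1 value per library, compared with exact two-sided permutation tests. Background windows were tiled over the autosomes. All 5 genes were described. The named regions were, per window or flank, the common region with the highest lower fold and the gained and the lost ones whose weaker fold was highest, up to 3 of each, with other regions named after their values were seen. The members and lists were chosen with earlier results of these data known, and the flank, step and stretch measures after the data were seen. Scripts ran in Python 3.11.15 (scipy 1.17.1, pandas 2.3.3, numpy 2.4.6) and were tested on simulated data. Depth and input were not used. With no hg19 annotation used here, gene positions within the windows, other SOX genes and the level of SMARCB1 itself were not examined.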

Additional observations from a re-analysis of the deposited data

How the results depend on the processing

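The 28 results were recomputed under 259 alternatives, of which 13 turned direction and 3 moved a count of regions. The other 243 did not turn, although several changed in size, the most in kb in the lower flank of SOX9, which went from -0.829 kb to -110.4 kb with flanks of 2 Mb. Many of the 243 could not turn, so their number is no measure of stability. A difference of 0, as in the empty windows and flanks, has no direction. Where the groups do not overlap, leaving out 1 library or using the replicate block cannot change the sign. The rises above SOX21 and below SOX4, and the shorter stretches at SOX4 and SOX21, kept their direction under every alternative run. Their groups do not overlap, so only the shortened lists and, for the flanks, the changed flank lengths could have turned them. Peak number in the SOX21 window went from -0.5 to 2.0 in windows 100 kb wider on each side, and from -1.5 to 0.5 without 1 library. At a −log10 q of at least 5, the SOX2 lower flank gave -0.016 kb and the SOX11 stretch 0.048 Mb. With lists of equal length the SOX11 stretch gave 0.057 Mb and the SOX21 window 1 lost region. With the 20000 strongest peaks, the SOX2 lower flank gave -0.913 kb, the SOX9 stretch 0.051 Mb and the SOX11 stretch 0.001 Mb. Flanks of 2 Mb gave 9.617 kb above SOX2, and flanks of 500 kb gave 1.102 kb above SOX9. Leaving out 1 library gave -6.938 to 4.312 kb above SOX9, -0.059 to 0.023 Mb for the SOX11 stretch and 0 to 1 lost regions. The cause was not tested. The shared replicate numbers are not shown to pair the libraries, and the replicate block left the mean difference in the SOX21 window at -1.025 kb, by pairs -1.191 and -0.859 kb, against -0.355 kb in windows 100 kb wider and -1.519 to -0.531 kb without 1 library. Without depth, an empty window cannot be told from one below the caller's threshold.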
